A study of Homo sapiens with 9 samples.

Results

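Mitochondria make ATP with a chain of 5 protein complexes, and most subunits of these complexes are encoded in the nucleus. The genes of these subunits were picked out of the PC3 spheroid expression data by symbol. A gene was a member when its symbol began with NDUFA, NDUFB, NDUFC, NDUFS, NDUFV, UQCR, ATP5 or one of COX4 to COX8, or was SDHA, SDHB, SDHC or SDHD. The rule matched 103 of the 27111 genes listed. Of these, 37 were classed as subunits of complex I, 4 of complex II, 8 of complex III, 19 of complex IV and 17 of complex V. The classes include COX7A2L and NDUFA4L2 (complex IV) and ATP5S and ATP5L2 (complex V), which may be relatives of subunits rather than subunits. A further 9 are complex I assembly factors, and 9 are antisense, read-through or copy genes that share a member's name. The filter on low counts left 96 members among 17108 genes tested. The 7 members that did not pass were COX4I2, COX6A2, COX7A1, COX8C, ATP5L2, ATP5EP2 and UQCRHL, and none of them exceeded 0.746 CPM in any library. CPM are read counts brought to a common library size by TMM scaling. None of the 13 subunits encoded by mitochondrial DNA was found by symbol among the genes listed, so they were not analysed here.

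PC3 is a human prostate cancer cell line from a bone metastasis. Cells were infected with lentiviral vectors and selected with puromycin to give 3 stable lines, called Empty (vector alone), NF-YAl and NF-YAs. The last 2 overexpress the long or the short splice isoform of NF-YA, the DNA-binding subunit of the CCAAT-binding factor NF-Y, from murine cDNAs on top of the cells' own NF-YA. All 3 lines grew as multicellular tumor spheroids (MTSs), which were pooled before total RNA extraction. Each line had 3 libraries, A, B and C for Empty and NF-YAs and A, B and D for NF-YAl, and 1 line stands for each construct.

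Complex I takes electrons from NADH and complex II takes them from succinate, as part of the citric acid cycle. Both pass them through ubiquinone to complex III, which hands them to cytochrome c, and complex IV passes them on to oxygen. Complexes I, III and IV pump protons across the inner membrane, and complex V, the ATP synthase, uses the return flow to make ATP. Several complex IV subunits exist as a widely expressed form and a paralog restricted to muscle, lung or testis.

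Libraries held 18076979 to 27163976 counts, and log counts of libraries of 1 line correlated at 0.971 to 0.992. In TMM-scaled CPM, NFYA was at 91.8 ± 4.24 for Empty, 341 ± 49.3 for NF-YAl and 261 ± 5.71 for NF-YAs (SD, n = 3 for these and all later group values), so both NF-YA lines carried more NFYA reads than Empty. The epithelial keratins KRT8 and KRT18 were at 109 CPM or more in every library and the prostate antigen KLK3 was at 0 in all 9, but the epithelial marker EPCAM was at 0.982 CPM in Empty, 2.71 in NF-YAs and 4.42 in NF-YAl. Of the markers of other cell types, DCN, LUM, PTPRC and CDH5 stayed below 0.5 CPM in every library, PECAM1 averaged 6.27, 5.57 and 1.88 CPM and COL3A1 41.3, 170 and 124 CPM (Empty, NF-YAl, NF-YAs). Their part in the results below was not tested. NF-YAl library D stood apart. Small RNA genes took 20.6% of its deposited TPM and 44.2% to 58.8% of that of the other 8, and members took 0.802% of its counts against 0.582% and 0.654% in NF-YAl A and B.

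The promoters of 5 members are shown first as examples of windows with and without CCAAT, the pentamer that NF-Y binds. They were chosen with their values known, so nothing is read from them about direction. COX7B2, ATP5G1 and COX6A1 were the members with the largest increases in NF-YAs, and NDUFV2 and COX4I1 those with the largest decreases in NF-YAl. Sequences are from the RefSeq promoter table. Each sequence runs 5′ to 3′ from 250 bases before to 50 bases after the annotated start on GRCh38.p14, and CCAAT or its reverse complement is in capitals. COX7B2 lies at chr4:46909196-46909495 (minus strand), ATP5G1 (now ATP5MC1) at chr17:48892537-48892836 (plus strand), COX6A1 at chr12:120437863-120438162 (plus strand), COX4I1 at chr16:85799445-85799744 (plus strand) and NDUFV2 at chr18:9102449-9102748 (plus strand).
COX7B2: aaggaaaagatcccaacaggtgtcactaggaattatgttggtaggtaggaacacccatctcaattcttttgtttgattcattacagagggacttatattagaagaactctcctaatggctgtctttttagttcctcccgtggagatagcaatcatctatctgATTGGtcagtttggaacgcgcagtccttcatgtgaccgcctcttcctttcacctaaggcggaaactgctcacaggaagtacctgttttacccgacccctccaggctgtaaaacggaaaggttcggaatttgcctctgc
ATP5G1: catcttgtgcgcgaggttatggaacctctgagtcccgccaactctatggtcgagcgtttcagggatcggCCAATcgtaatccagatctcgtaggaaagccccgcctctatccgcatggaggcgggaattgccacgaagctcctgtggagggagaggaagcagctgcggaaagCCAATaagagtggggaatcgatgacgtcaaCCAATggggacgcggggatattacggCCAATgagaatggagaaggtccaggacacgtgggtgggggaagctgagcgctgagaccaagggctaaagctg
COX6A1: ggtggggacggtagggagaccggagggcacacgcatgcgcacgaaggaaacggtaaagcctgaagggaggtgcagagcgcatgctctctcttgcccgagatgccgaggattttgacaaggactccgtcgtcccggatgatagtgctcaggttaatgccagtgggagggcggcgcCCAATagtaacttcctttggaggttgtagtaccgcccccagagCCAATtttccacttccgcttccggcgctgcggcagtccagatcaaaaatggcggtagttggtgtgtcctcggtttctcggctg
COX4I1: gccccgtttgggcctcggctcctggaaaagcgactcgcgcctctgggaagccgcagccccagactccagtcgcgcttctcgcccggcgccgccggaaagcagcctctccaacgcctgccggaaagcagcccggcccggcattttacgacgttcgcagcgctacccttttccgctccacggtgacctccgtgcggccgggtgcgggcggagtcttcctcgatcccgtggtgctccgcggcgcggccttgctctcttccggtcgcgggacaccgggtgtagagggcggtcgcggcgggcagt
NDUFV2: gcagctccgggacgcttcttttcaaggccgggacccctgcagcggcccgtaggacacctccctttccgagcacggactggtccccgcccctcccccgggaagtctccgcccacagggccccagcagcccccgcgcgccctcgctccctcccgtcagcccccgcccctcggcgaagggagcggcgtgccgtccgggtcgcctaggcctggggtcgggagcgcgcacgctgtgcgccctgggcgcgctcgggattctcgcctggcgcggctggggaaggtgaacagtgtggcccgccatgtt
ATP5G1 holds 4 CCAAT pentamers, all on the gene's strand, COX6A1 holds 2 and COX7B2 holds 1 on the opposite strand. The windows of COX4I1 and NDUFV2 hold none. Among other members, NDUFAF8 and ATP5C1, which rose in NF-YAs, hold none, and NDUFV3, which fell in both lines, holds 2. Whether CCAAT goes with the direction of change was not tested.

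A promoter was found for 79 of the 103 members. CCAAT on either strand was in 29 of them, or 36.7%, against 35.7% of all 27305 promoters in the table, so the pentamer was about as frequent among members as elsewhere. The core of the NRF1 site, GCGCATGCG, was in 11 member promoters (13.9%) and in 2.1% of all. The core of the site for GABPA and other ETS factors, CCGGAAG, was in 20 (25.3%) and in 10.7% of all. NRF1 and GABPA are known activators of respiratory genes. Both strands were searched, and the 2 strands of the NRF1 core overlap almost fully, so that ATP5C1 matched on both with 1 site. By complex, CCAAT was in 8 of 32 promoters of complex I, 0 of 3 of complex II, 3 of 7 of complex III, 8 of 14 of complex IV and 4 of 11 of complex V. Among members that rose in NF-YAs it was in 3 of 6 and among those that fell there in 2 of 6, among those that fell in NF-YAl it was in 2 of 7, while members that passed in no comparison had it in 22 of 60.

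Genes can be compared with each other only per length, so levels of different genes are given in TPM, in which counts are divided by transcript length and brought to a fixed library total, rescaled here over genes other than small RNAs. COX7C, a small complex IV subunit, had the highest mean over the 9 libraries at 2215 TPM. It was followed by ATP5E, the epsilon subunit of the ATP synthase, at 1343 TPM and by COX6A1 at 1271 TPM. Of the 103 members, 6 had a mean below 1 TPM, which were COX4I2, COX6A2, COX8C and 3 of the copy or read-through genes. Summed over its subunits, complex I held 8268 ± 243 TPM for Empty, 8243 ± 584 for NF-YAl and 8951 ± 71.8 for NF-YAs. Complex IV held 7959 ± 208, 8445 ± 887 and 8866 ± 267 TPM, and complex V 5952 ± 207, 5921 ± 448 and 6661 ± 124 TPM. Complex III held 1510 ± 56.7, 1483 ± 211 and 1515 ± 47.1 TPM, and complex II 610 ± 24.3, 542 ± 90.3 and 621 ± 16.9 TPM. TPM have a fixed library total, so these sums give no amount per cell. In such bulk samples a difference in some cells cannot be told from one in all cells. All 3 NF-YAs libraries were above all Empty libraries for complexes I, IV and V on this scale, and NF-YAl overlapped Empty for all 5. The order depended on the scale. In CPM, complex I held 2302 ± 161 in Empty and 2303 ± 25.7 in NF-YAs, and complex V 1969 ± 157 and 1966 ± 30.1, so these complexes did not stand apart there. As deposited, complex I summed to 3968 ± 390, 4621 ± 2104 and 4579 ± 403 TPM and overlapped between all lines, and NF-YAl library D alone had 7049 TPM for complex I where NF-YAl A and B had 3471 and 3344.

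**Figure D1:**
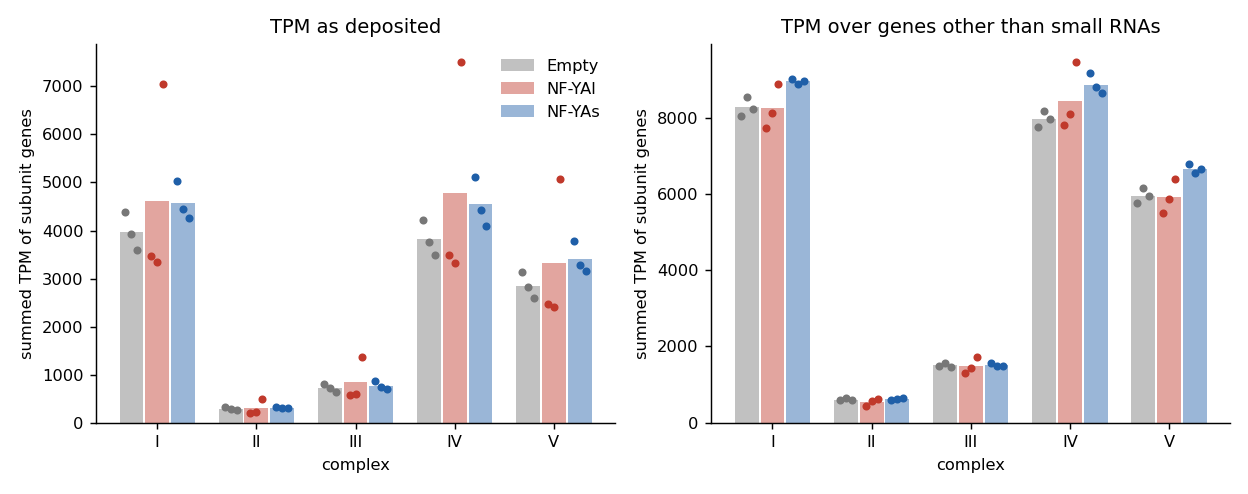
Summed TPM of the subunit genes of complexes I to V (bars, mean of 3 libraries; points, single libraries) in Empty, NF-YAl and NF-YAs, as deposited (left) and rescaled over genes other than small RNAs (right). Library D of NF-YAl is the single high red point on the left, 7049 TPM for complex I, and moves to 8881 TPM beside 7734 and 8114 on the right.

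Between 8 and 14 of the 96 tested respiratory chain genes differed in each comparison of lines, and all but COX7B2 by less than 1 on the log2 scale. Genes were tested with edgeR's quasi-likelihood test over all 9 libraries, and a gene counts as risen or fallen at a Benjamini-Hochberg adjusted p under 0.01. In NF-YAl against Empty, 1 of 96 members rose and 8 fell, where 10% of all genes tested rose and 9.54% fell. In NF-YAs against Empty, 7 rose and 7 fell, where 12.1% of all genes rose and 10.5% fell. In NF-YAl against NF-YAs, 2 were higher and 6 lower, where 4.70% and 6.25% of all genes were. The shares of members, 1.04% and 8.33%, 7.29% and 7.29%, and 2.08% and 6.25%, were at or below those of all genes in this fit. For the decreases in NF-YAl this turned when library D was left out, as given further on. A |log2FC| above 1 as well was reached by COX7B2 in each comparison and by no other member, where 8.27%, 9.34% and 4.61% of all genes reached it in the 3 comparisons in this order. The median log2FC of the members was -0.14 in NF-YAl and -0.0018 in NF-YAs against Empty and -0.13 between the NF-YA lines, beside 0.01, -0.0026 and 0.02 for all genes. Without any test, all NF-YAl libraries lay above all Empty libraries for 8 members and below for 21, and those of NF-YAs above for 23 and below for 16, where 21.0%, 21.4%, 29.2% and 27.1% of all genes did. All NF-YAl libraries lay above all NF-YAs libraries for 6 of the 96 members and below for 25, where 18.6% and 20.9% of all genes did. Both comparisons with Empty use the same 3 Empty libraries.

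The counts of members that fell depended on single libraries. Without NF-YAl library D, 19 of 98 members (19.4%) were lower in NF-YAl than Empty, against 12.2% of all genes, and 16 (16.3%) were lower than in NF-YAs, against 8.81% of all genes. The members' share was then above that of all genes in both comparisons. Without NF-YAl A, 4 were lower and 3 higher than in Empty. Without NF-YAl B, 3 were lower than in Empty and 2 lower than in NF-YAs. Without Empty B or Empty C, 1 was lower than in Empty. All these were smaller shares of the members than of all genes. Of all genes, 9.27% were lower without NF-YAl A, and 7.08% and 4.57% without NF-YAl B. The share was 5.96% without Empty B and 5.77% without Empty C. Without Empty A, 8 members (8.25%) were lower in NF-YAl than Empty, against 7.06% of all genes. In NF-YAs against Empty, 2 fell without Empty B, 3 without NF-YAs A, and 1 without Empty C, NF-YAs B or NF-YAs C. In these fits 6.28% to 7.14% of all genes fell. Those that rose stayed at 5 or 6 with a library of either line left out, where 7.20% to 8.65% of all genes rose. Between the lines, 3 were lower without NF-YAs A and 1 without NF-YAs B or NF-YAs C, where 3.95%, 3.29% and 2.97% of all genes were. Library totals alone in place of TMM moved the median of all genes to 0.16 and 0.11. With them 5 members rose and 1 fell in NF-YAl, where 15.4% and 6.03% of all genes did. In NF-YAs 12 rose and 2 fell, where 16.1% and 7.44% of all genes did. The decreases that passed there were those of NDUFV2 in both lines and SDHC in NF-YAs, whereas NDUFV3, NDUFS1, NDUFAF3, UQCRQ, UQCRC2, COX4I1, ATP5A1 and ATP5B lost their calls as lower against Empty. The same calls were kept with relative log expression scaling and by DESeq2. In fits of the 2 groups alone, NDUFV2 was the only member called lower in NF-YAl against Empty, and SDHC, ATP5B, ATP5G2 and NDUFA10 lost their calls between the NF-YA lines.

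**Figure D2:**
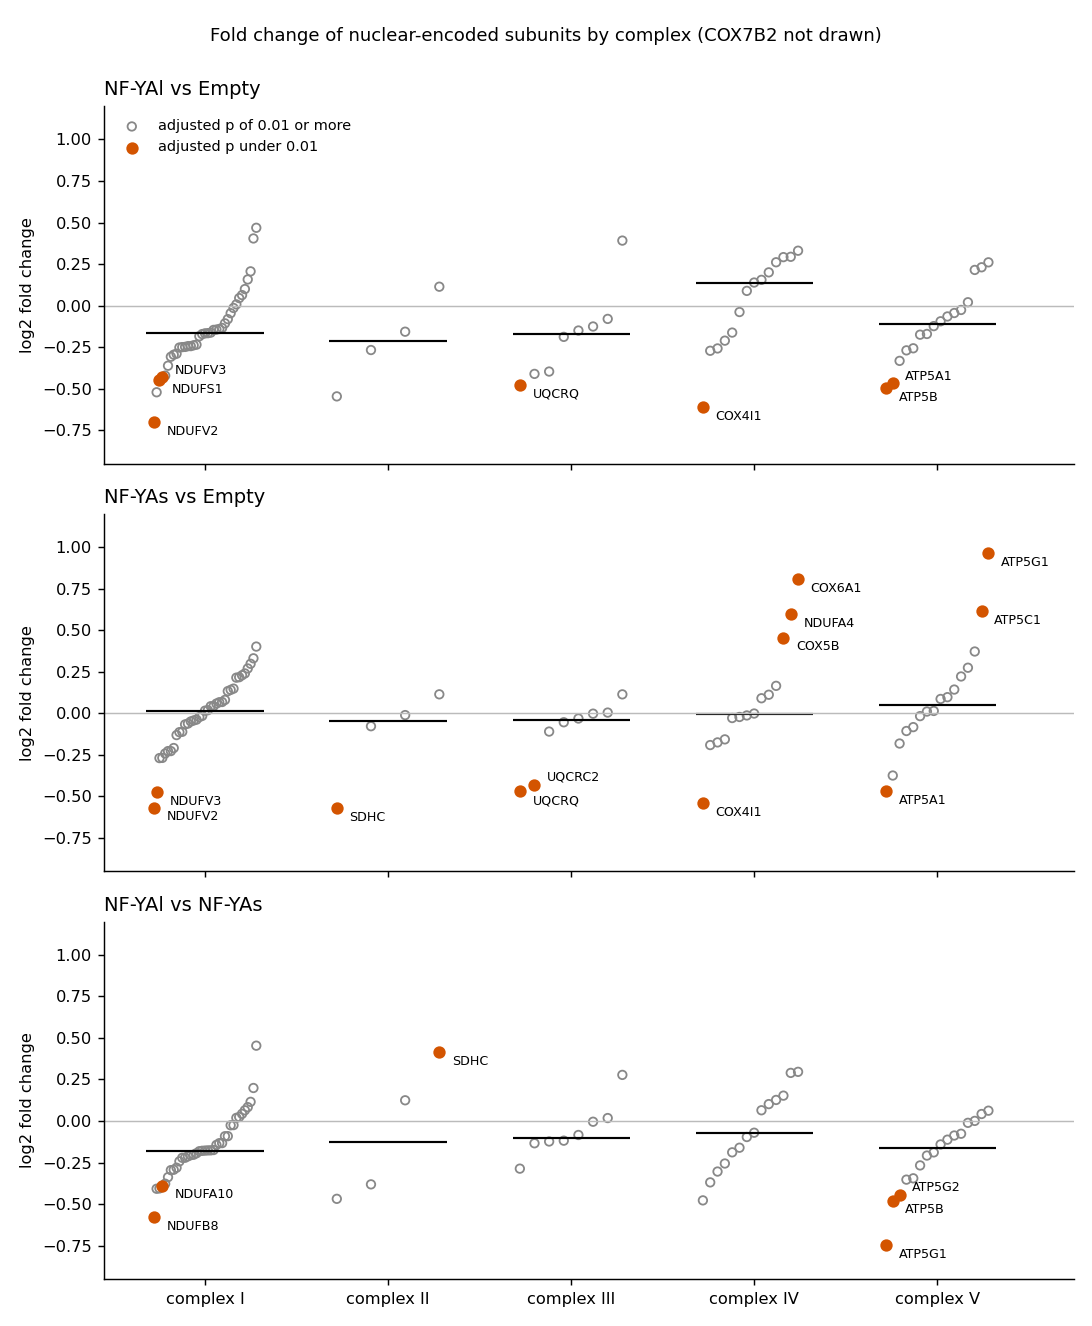
Log2 fold change of each tested subunit gene (circles) by complex in NF-YAl against Empty (top), NF-YAs against Empty (middle) and NF-YAl against NF-YAs (bottom), with the median as a line and genes at an adjusted p under 0.01 filled and named. COX7B2 counts in the median but is off the scale at 6.68, 4.15 and 2.53, and the filled circles above 0 in the middle panel belong to complexes IV and V.

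The libraries of NF-YAl differed among themselves more than those of the other lines. Over 77 subunit genes with a mean of at least 5 CPM, the median log2 difference from the Empty mean was -0.37 in NF-YAl A, -0.17 in B and 0.04 in D. It lay between -0.10 and 0.09 in the Empty libraries and between -0.02 and 0.04 in those of NF-YAs. In NF-YAl A it was -0.37 for complex I, -0.47 for complex II, -0.52 for complex III and -0.43 for complex V, but 0.01 for complex IV. Members are short transcripts, with a median effective length of 739 bases against 2984 for all genes of the same level. The other genes of 500 to 800 bases had medians of -0.35, -0.20 and -0.04 in NF-YAl A, B and D, and those of 2000 to 4000 bases had -0.05, -0.01 and -0.00. The medians of the members thus lay near those of other short genes in A and B, and the part of transcript length in the members' differences was not tested.

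**Figure D3:**
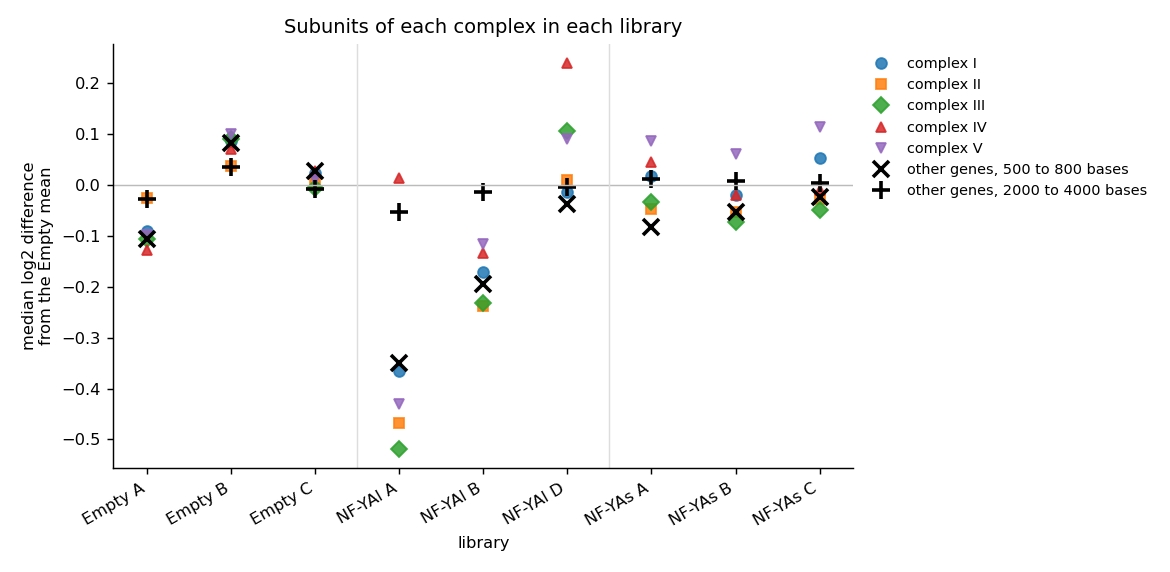
Median log2 difference of the subunit genes of each complex from the Empty mean in each of the 9 libraries (coloured symbols), with other genes of 500 to 800 bases (crosses) and of 2000 to 4000 bases (plus signs). NF-YAl A is the lowest library for 4 of the 5 complexes, between -0.37 and -0.52, and the short genes lie at -0.35 there.

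Complex I had 37 subunits tested, and 3 fell in NF-YAl and 2 in NF-YAs against Empty while none rose. The one with the largest change was NDUFV2, a core subunit of the module that oxidises NADH (GRCh37, chr18:9102628-9134343, plus strand). Its CPM was 111, 145 and 136 for Empty, 75.8, 80.1 and 85.4 for NF-YAl, with 92.2, 86.5 and 85.9 for NF-YAs, so that every library of both NF-YA lines was below every Empty library. The log2FC was -0.70 ± 0.11 (SE) in NF-YAl with an edgeR adjusted p of 0.00043 and -0.57 ± 0.11 in NF-YAs with 0.0016. The NF-YAl result kept its call under all 14 alternatives, and that in NF-YAs lost it without Empty C, NF-YAs B or NF-YAs C, with an adjusted p up to 0.011. NDUFV3, an accessory subunit of the same module, was at 56.9, 57 and 58.4 CPM for Empty, 36.4, 46.9 and 44.3 for NF-YAl, with 41.1, 41.4 and 41.5 for NF-YAs. It fell by 0.43 in NF-YAl (SE 0.10, edgeR adjusted p = 0.0062) and by 0.47 in NF-YAs (SE 0.10, adjusted p = 0.0032) on the log2 scale, again without overlap with Empty. NDUFV1, another subunit of that module and the one that holds its flavin, did not pass. Its log2FC was -0.17 ± 0.11 in NF-YAl and 0.24 ± 0.11 in NF-YAs (edgeR adjusted p = 0.27 and 0.10).

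NDUFS1, the largest core subunit, had 121, 147 and 136 CPM in Empty and 86.2, 103 and 107 in NF-YAl, where it fell by 0.45 on the log2 scale (SE 0.11, edgeR adjusted p = 0.0068). In NF-YAs it had 116, 113 and 117 CPM, also below Empty, with a log2FC of -0.23 that did not pass (edgeR adjusted p = 0.12). The calls of NDUFV3 and NDUFS1 ended when any of several libraries was left out, with an edgeR adjusted p up to 0.029 in NF-YAl and 0.017 in NF-YAs for NDUFV3 and up to 0.037 for NDUFS1. NDUFB8 and NDUFA10, accessory subunits of the membrane part, were lower in NF-YAl than in NF-YAs. NDUFB8 had 44.9, 48.8 and 51.5 CPM in NF-YAl, 68.2, 74.6 and 74.0 in NF-YAs and 49.3, 62.4 and 60.7 in Empty, which overlapped NF-YAl. The difference between the NF-YA lines was -0.58 ± 0.11 on the log2 scale (edgeR adjusted p = 0.0027), and it lost its call without NF-YAl B, NF-YAs B or NF-YAs C (adjusted p up to 0.017). NDUFA10 had 120, 119 and 115 CPM in NF-YAl, 154, 158 and 150 in NF-YAs and 132, 137 and 129 in Empty, a difference between the lines of -0.39 ± 0.08 (edgeR adjusted p = 0.0052, up to 0.032 with a library left out). For both genes the groups did not overlap between the NF-YA lines. The other complex I subunits ranged from -0.52 to 0.47 in NF-YAl and from -0.27 to 0.40 in NF-YAs on the log2 scale without passing.

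Of the 9 complex I assembly factors, 1 rose in NF-YAs and 1 fell in NF-YAl. NDUFAF8 had 26, 26.3 and 24.7 CPM for Empty, 22.1, 25.4 and 27.3 for NF-YAl, with 37.7, 45.1 and 40.4 for NF-YAs. The NF-YAs libraries stood above all others, by 0.68 ± 0.11 against Empty (edgeR adjusted p = 0.00053) and with NF-YAl lower than NF-YAs by -0.72 ± 0.11 (adjusted p = 0.00087) on the log2 scale. Both calls were kept under all 14 alternatives. NDUFAF3, an early assembly factor, was at 50.9, 58.1 and 56.4 CPM in Empty and at 35.5, 41.1 and 42.3 in NF-YAl, a log2FC of -0.47 ± 0.10 (edgeR adjusted p = 0.0027), and at 44.1, 43.9 and 44.2 in NF-YAs (adjusted p = 0.021). Without Empty B or Empty C the NF-YAl call was lost, with an adjusted p up to 0.016. NDUFAF3 overlaps DALRD3 on the other strand, as COX4I1 does EMC8, UQCRQ GDF9 and NDUFB8 HIF1AN. The strand setting of the counting is not given in the sources used here, so reads of such pairs might not be told apart.

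Complex II has 4 subunits and is the only complex without mitochondrially encoded ones. SDHC, one of its membrane anchors (GRCh37, chr1:161284171-161332996, plus strand), was the member that passed. It had 66.1, 66.4 and 67.2 CPM for Empty, 55.6, 57.7 and 65.8 for NF-YAl, with 47.7, 42.5 and 44.5 for NF-YAs, so the 3 lines did not overlap. SDHC fell in NF-YAs by 0.57 on the log2 scale (SE 0.09, edgeR adjusted p = 0.00059) under all 14 alternatives. In NF-YAl the log2FC was -0.16 ± 0.09 (edgeR adjusted p = 0.23), and NF-YAl was higher than NF-YAs by 0.41 ± 0.09 (adjusted p = 0.0084). That last call was lost without NF-YAl B, NF-YAl D or any 1 of the NF-YAs libraries, with an edgeR adjusted p up to 0.051. SDHA, the flavoprotein that oxidises succinate, had 309, 411 and 352 CPM for Empty, 177, 285 and 272 for NF-YAl, with 303, 347 and 366 for NF-YAs. NF-YAl lay below both other lines, but the log2FC of -0.55 ± 0.17 did not pass (edgeR adjusted p = 0.026). SDHA may share reads with its copies SDHAP1 and SDHAP2, which were at 33.7 and 47.7 CPM in NF-YAl and at 23.1 and 29.3 CPM in Empty. SDHB, the iron-sulfur subunit, and SDHD, the other anchor, had log2FC between -0.27 and 0.11 against Empty and did not pass.

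**Figure D4:**
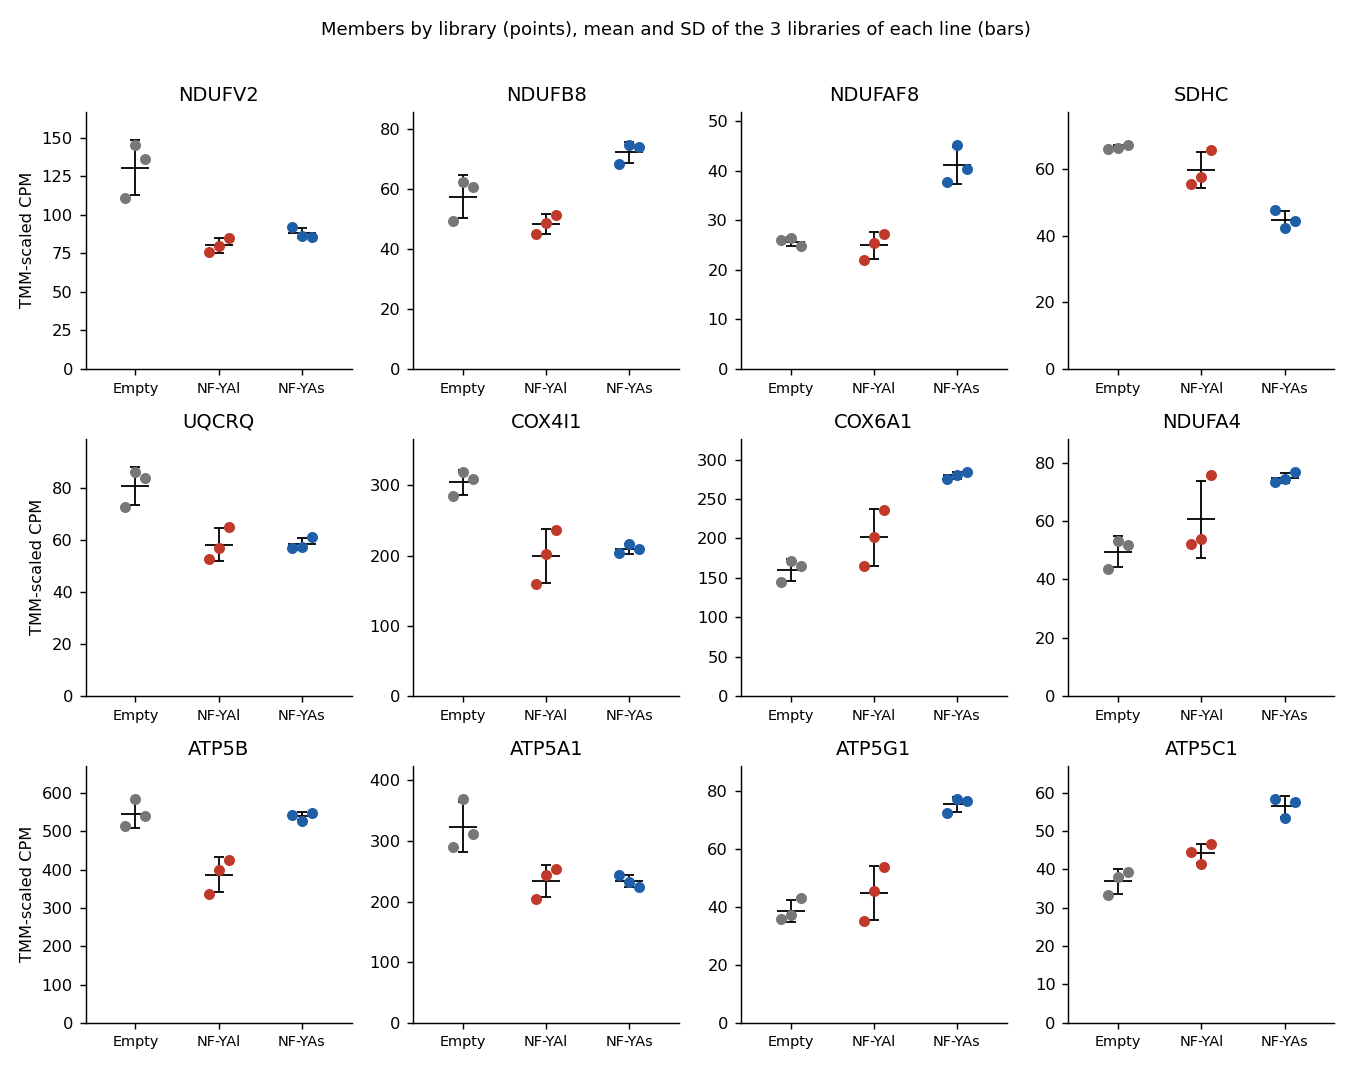
TMM-scaled CPM of 12 members in the 3 libraries of Empty, NF-YAl and NF-YAs (points), with mean and SD (bars) and each axis starting at 0. NDUFV2, UQCRQ, COX4I1 and ATP5A1 are lower in both NF-YA lines, ATP5B is lower in NF-YAl alone (387 CPM against 546 and 539), and ATP5G1, COX6A1 and NDUFAF8 are highest in NF-YAs.

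Of the 8 complex III genes, 1 fell in NF-YAl and 2 in NF-YAs. UQCRQ, a small subunit next to the ubiquinone-binding part, was at 72.6, 86.2 and 83.9 CPM for Empty, 52.7, 56.8 and 65.1 for NF-YAl, with 56.8, 57.4 and 61.1 for NF-YAs. Both NF-YA lines lay below Empty without overlap, with log2FC of -0.47 ± 0.10 (edgeR adjusted p = 0.0045) and -0.47 ± 0.11 (adjusted p = 0.0042). UQCRC2, a core protein of the complex, was at 91.4, 117 and 98.4 CPM for Empty, 70.8, 78.1 and 82.0 for NF-YAl, with 76.1, 75.7 and 76.3 for NF-YAs. It passed in NF-YAs at -0.43 ± 0.11 (edgeR adjusted p = 0.0076) and narrowly missed in NF-YAl at -0.41 ± 0.11 (adjusted p = 0.011). With 1 library left out, 4 of 6 fits lost the NF-YAl call of UQCRQ, 5 of 6 its NF-YAs call and 5 of 6 that of UQCRC2, with adjusted p up to 0.025, 0.023 and 0.038 by edgeR. UQCRC1, the other core protein, and UQCRFS1, the Rieske iron-sulfur protein, had log2FC of -0.15 and -0.40 in NF-YAl and of -0.03 and -0.11 in NF-YAs and did not pass. CYC1, the cytochrome c1 of the complex that the symbol rule left out, had 217, 193 and 209 CPM in the 3 lines and passed in no comparison. The members of complex III that did not pass ranged from -0.41 to 0.39 in NF-YAl and from -0.11 to 0.11 in NF-YAs on the log2 scale.

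Complex IV had both the largest change of all members and most of the increases in NF-YAs, where 4 of its 15 tested genes rose and 1 fell. COX4I1, the regulatory subunit made early in assembly (GRCh37, chr16:85832239-85840674, plus strand), was the one that fell. It had 284, 319 and 310 CPM for Empty, 160, 202 and 236 for NF-YAl, with 203, 216 and 209 for NF-YAs, lower in every library of both lines. The log2FC was -0.61 ± 0.13 in NF-YAl (edgeR adjusted p = 0.0031) and -0.54 ± 0.13 in NF-YAs (adjusted p = 0.0056). Leaving out Empty B, Empty C or NF-YAl B ended the first call (adjusted p up to 0.016), and leaving out any 1 library ended the second (up to 0.027 by edgeR). COX5A, a matrix-side subunit next to COX4I1, was at 44.8 ± 2.45, 37.1 ± 4.74 and 39.7 ± 0.864 CPM in Empty, NF-YAl and NF-YAs, below Empty in every library but not past the test.

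COX6A1, a subunit at the face of the dimer (GRCh37, chr12:120875893-120878540, plus strand), had 144, 171 and 165 CPM for Empty, 165, 202 and 237 for NF-YAl, with 276, 281 and 284 for NF-YAs. Only NF-YAs stood clear of Empty, and COX6A1 rose there by 0.81 ± 0.12 on the log2 scale (edgeR adjusted p = 0.00037) under all 14 alternatives. In NF-YAl the log2FC was 0.33 ± 0.12 (edgeR adjusted p = 0.060), and the difference between the NF-YA lines did not pass (adjusted p = 0.017). The annotation also has a read-through gene over COX6A1, whose reads could be shared. NDUFA4, once placed in complex I and now known as a complex IV subunit, had 43.4, 53.3 and 51.7 CPM in Empty and 73.4, 74.6 and 76.8 in NF-YAs, a log2FC of 0.60 ± 0.14 (edgeR adjusted p = 0.0052), and 52.1, 54.0 and 75.8 in NF-YAl (adjusted p = 0.13). In NF-YAl library D was the high one. COX5B, a zinc-binding subunit and the last of the 4 that rose, is named here because its values were seen. It was at 47.2, 54.4 and 49.7 CPM in Empty and 65.1, 69.2 and 73.3 in NF-YAs (log2FC 0.46 ± 0.11, edgeR adjusted p = 0.0052). The calls of NDUFA4 and COX5B were lost in 6 and 5 of 6 fits with a library left out, with adjusted p up to 0.028 and 0.031 by edgeR.

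COX7B2, a paralog of COX7B known from testis (GRCh37, chr4:46736844-46911262, minus strand), was near 0 in Empty and higher in both NF-YA lines. Its counts were 3, 2 and 1 in Empty A, B and C, 164, 203 and 231 in NF-YAl A, B and D, and 35, 21 and 36 in NF-YAs A, B and C. In CPM it was at 8.70, 8.30 and 9.49 in NF-YAl and at 1.89, 1.05 and 1.66 in NF-YAs, so the 3 lines were far apart. All Empty libraries were at or under a floor of 3 counts per library. Against that floor the mean of NF-YAl was at least 70.2-fold and that of NF-YAs at least 12.2-fold higher. The lowest single library was 66.0-fold above the floor in NF-YAl and 8.31-fold in NF-YAs. The edgeR adjusted p was 3.2e-07 and 1.4e-05 against Empty. NF-YAl was 5.77-fold higher than NF-YAs, a log2FC of 2.53 ± 0.24 (edgeR adjusted p = 3.8e-05). All 3 calls were kept in each of the 13 alternatives that could test the gene. A minimum of 10 counts in every library leaves it out. The files list 1 transcript for COX7B2. Of the protein-coding genes on either side, GABRG1, GABRA2, GABRA4 and GABRB1 were at 0.822 CPM or less in every library. Farther off, COMMD8 averaged 2.51, 3.30 and 4.42 CPM and ATP10D 6.09, 8.69 and 12.05 CPM in Empty, NF-YAl and NF-YAs, and on the other side GNPDA2 averaged 10.38, 12.9 and 11.8 CPM and GUF1 23.7, 25.1 and 26.1 CPM.

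The widely expressed partner COX7B did not pass in any comparison. It had 100, 115 and 114 CPM for Empty, 72.9, 94.5 and 126 for NF-YAl, with 113, 108 and 108 for NF-YAs, and log2FC of -0.16 ± 0.16 and -0.00 ± 0.16. Per length, COX7B2 stood at 58.6 TPM in NF-YAl and 9.78 in NF-YAs beside 835 and 915 TPM for COX7B, so the paralog stood below its partner in both lines. The other restricted paralogs passed no test. COX6B2, also known from testis, was at 13.6, 7.87 and 10.5 CPM for Empty, 15.0, 9.45 and 10.9 for NF-YAl, with 9.26, 8.86 and 10.6 for NF-YAs, which overlap. COX4I2, COX6A2, COX7A1 and COX8C were at 0.512 CPM or less in every library, and NDUFA4L2, a relative of NDUFA4, was between 0.517 and 1.43 CPM. Of their widely expressed partners, COX6B1, COX7A2 and COX8A did not pass in any comparison, while COX4I1, COX6A1 and NDUFA4 passed as described. The complex IV genes that did not pass ranged from -0.27 to 0.33 in NF-YAl and from -0.19 to 0.17 in NF-YAs on the log2 scale, among them COX7C, the member with the highest level.

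**Figure D5:**
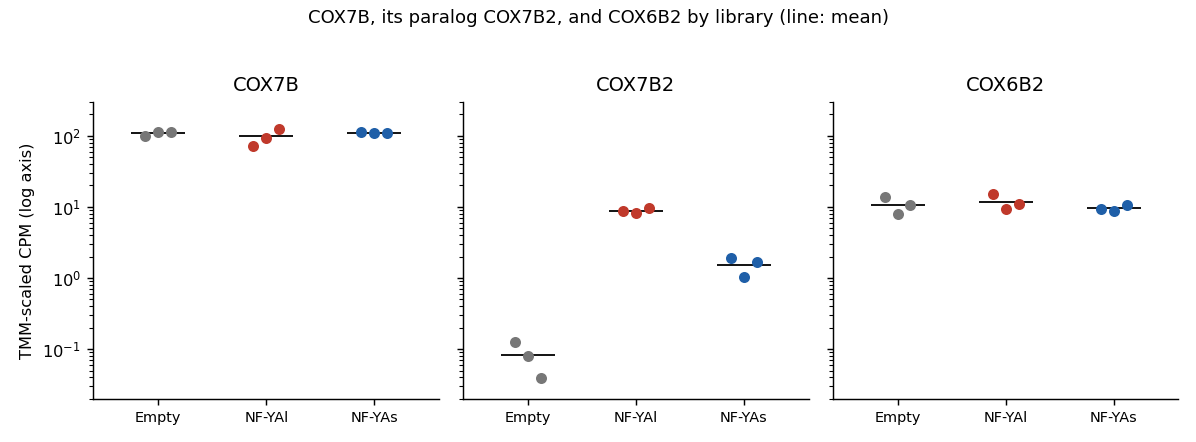
TMM-scaled CPM, on a log axis, of COX7B, COX7B2 and COX6B2 in the 3 libraries of Empty, NF-YAl and NF-YAs (points; lines are means). COX7B2 is at 0.126 CPM or less in Empty, 1.05 to 1.89 in NF-YAs and 8.30 to 9.49 in NF-YAl, whereas COX7B and COX6B2 overlap between lines.

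Complex V had 16 genes tested, of which 2 fell in NF-YAl and 2 rose and 1 fell in NF-YAs. The catalytic head of the ATP synthase is built from ATP5A1 (alpha) and ATP5B (beta) around the shaft subunit ATP5C1 (gamma), and these 3 differed in pattern. ATP5A1 had 290, 369 and 311 CPM for Empty, 204, 244 and 254 for NF-YAl, with 244, 233 and 225 for NF-YAs, lower in both lines with log2FC of -0.47 ± 0.12 (edgeR adjusted p = 0.0085 and 0.0075). ATP5B had 514, 584 and 539 CPM for Empty, 337, 398 and 426 for NF-YAl, with 542, 528 and 548 for NF-YAs. It fell in NF-YAl alone, by 0.50 against Empty (SE 0.11, edgeR adjusted p = 0.0035), and was lower there than in NF-YAs by 0.48 (SE 0.11, adjusted p = 0.0069) on the log2 scale. ATP5C1 had 33.3, 38.1 and 39.2 CPM for Empty, 44.6, 41.5 and 46.5 for NF-YAl, with 58.3, 53.3 and 57.6 for NF-YAs. It rose in NF-YAs by 0.61 ± 0.10 (edgeR adjusted p = 0.00043) under all 14 alternatives and was above Empty in NF-YAl without passing (0.26 ± 0.10, adjusted p = 0.057). For ATP5A1, 4 of 6 fits with a library left out lost the NF-YAl call and 5 of 6 the NF-YAs call (edgeR adjusted p up to 0.045 and 0.038), and for ATP5B, 3 of 6 and 5 of 6 lost the calls against Empty and NF-YAs (up to 0.020 and 0.036).

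The c-ring that turns in the membrane is made of 1 mature protein encoded by 3 genes, ATP5G1, ATP5G2 and ATP5G3. ATP5G1 (GRCh37, chr17:46970127-46973233, plus strand) had 35.9, 37.3 and 42.9 CPM for Empty, 35.2, 45.6 and 53.7 for NF-YAl, with 72.5, 77.2 and 76.7 for NF-YAs. NF-YAs stood apart from both other lines, by 0.96 ± 0.14 on the log2 scale against Empty (edgeR adjusted p = 0.00021, kept under all 14 alternatives), and NF-YAl differed from NF-YAs by -0.75 ± 0.14 (adjusted p = 0.0024, lost, with up to 0.013, without NF-YAs B or NF-YAs C). ATP5G2 had 88.9, 93.9 and 95.2 CPM for Empty, 81.9, 77.7 and 87.4 for NF-YAl, with 110, 114 and 112.1 for NF-YAs. Here too NF-YAs was the highest, and it passed against NF-YAl (log2FC of NF-YAl -0.44 ± 0.09, edgeR adjusted p = 0.0033, up to 0.020 with a library left out) but not against Empty (adjusted p = 0.025). ATP5G3 was at 110 ± 4.41, 92.0 ± 20.6 and 111 ± 4.55 CPM in Empty, NF-YAl and NF-YAs and passed nowhere. Per length, ATP5G1 was at 212 TPM in Empty and 445 in NF-YAs, ATP5G2 at 287 and 370, and ATP5G3 at 102 and 108, so that ATP5G1 had the highest mean of the 3 in NF-YAs and ATP5G2 in Empty. The complex V genes that did not pass, ATP5E among them, ranged from -0.33 to 0.26 in NF-YAl and from -0.37 to 0.37 in NF-YAs on the log2 scale.

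None of the 7 tested antisense, read-through or copy genes passed. NDUFA6-AS1, the one with a mean above 5 CPM, had 7.55, 7.95 and 6.53 CPM for Empty, 15.1, 12.2 and 8.42 for NF-YAl, with 9.16, 12.2 and 11.7 for NF-YAs, all above Empty (edgeR adjusted p = 0.021 and 0.041). Of 48 members with several transcripts and a mean of at least 5 TPM, 47 had the same leading transcript in all 3 lines. A difference in mean share over 10 percentage points without overlap was found for NDUFA5 and ATP5J2. The main NDUFA5 transcript held 75.0%, 86.6% and 75.9% of the gene in NF-YAl, with 94.8%, 93.8% and 94.0% in NF-YAs. It held 68.3%, 93.6% and 86.1% in Empty. One ATP5J2 transcript held 56.4%, 53.0% and 51.6% in NF-YAl, with 44.4%, 40.4% and 43.4% in NF-YAs.

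Genes that serve the respiratory chain were counted from fixed lists in the same fits. Of all genes tested, 10% rose and 9.54% fell in NF-YAl against Empty, and 12.1% rose and 10.5% fell in NF-YAs. Whether the share of any list differed from that of all genes was not tested. Single genes of the lists were named after their values were seen. Of 57 assembly factors, 2 rose and 3 fell in NF-YAl and 3 rose and 2 fell in NF-YAs. TTC19, a complex III assembly factor, was lower in NF-YAs by -0.77 ± 0.09 (edgeR adjusted p = 3.9e-05) on the log2 scale, and SCO2, which delivers copper to complex IV, was lower in NF-YAl by -0.84 ± 0.16 (adjusted p = 0.0020). Of 21 electron carriers and coenzyme Q genes, 4 rose and 4 fell in NF-YAl and 3 rose and 4 fell in NF-YAs. COQ9, a lipid-binding protein of coenzyme Q synthesis, fell in both (-0.91 ± 0.14 and -0.80 ± 0.14), and COQ7, a hydroxylase of the same pathway, rose in both (0.78 ± 0.14 and 0.71 ± 0.14). Of 19 citric acid cycle genes, 0 rose and 3 fell in NF-YAl, and 1 rose and 1 fell in NF-YAs. Of 32 genes of mitochondrial biogenesis and mtDNA expression, 1 rose and 0 fell in NF-YAl and 5 rose and 0 fell in NF-YAs, POLG2, the accessory subunit of the mitochondrial DNA polymerase, in both (1.17 ± 0.15 and 0.85 ± 0.15). Of 78 mitochondrial ribosomal protein genes, 1 rose and 5 fell in NF-YAl and 8 rose and 5 fell in NF-YAs, with medians of -0.10 and 0.14. MRPS6, a protein of the small ribosomal subunit, had the largest difference of all these genes, at -1.57 ± 0.17 in NF-YAl and -2.12 ± 0.17 in NF-YAs.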

How the data were processed

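RNA-seq of MTSs from 3 transduced PC3 lines gave 9 libraries, grouped by the sample labels. The authors aligned reads to human transcripts of hg19 (GRCh37) with Bowtie2 in RSEM and deposited, per library, expected counts and TPM of genes and, for transcripts, the percent of the gene's TPM. Deposited effective lengths are in bases. Expected counts are not normalized, and RSEM shares reads that align to several transcripts. The authors' TPM, which have a fixed total per library, were also rescaled here without rRNA, small nuclear, small nucleolar and similar genes.

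Rounded gene counts were tested with edgeR 4.0.16 in R 4.3.3: filterByExpr, TMM scaling, 1 quasi-likelihood fit of the 3 groups with a test of each contrast, and p-values adjusted by Benjamini-Hochberg over all 17108 genes, called at an adjusted p under 0.01. SEs are |log2FC| over the square root of F. The alternatives were DESeq2 1.42.0 and other scalings, filters, fits and thresholds. Library deviations use log2(CPM + 0.5) over genes with a mean of at least 5 CPM. The study speaks of independent experiments; the labels give no source of the replicates, so p-values measure only the spread between these libraries. Sums and shares are descriptions without a test.

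Members and gene lists were chosen with earlier results of these data known. Genes named were, per comparison and direction, the 6 with the largest |log2FC| among those called, without overlap of libraries and with at least 5 TPM in the higher group, plus core subunits, paralog pairs and the 3 of highest TPM; COX5B and NDUFA6-AS1, NDUFA5 and ATP5J2 were named after their values were seen. Other genes of the related lists were named after their values were seen. Positions are from GENCODE v44 on GRCh37. Some genes of the naming rule and of the marker list are not reported here.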

Additional observations from a re-analysis of the deposited data

Results flagged for a closer look

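The edgeR contrast between both NF-YA lines, which is the difference of their effects against the shared Empty libraries, passed for 8 members. NF-YAl was higher for COX7B2 (log2FC 2.53) and SDHC (0.41). It was lower for ATP5G1 (-0.75), NDUFAF8 (-0.72), NDUFB8 (-0.58), ATP5B (-0.48), ATP5G2 (-0.44) and NDUFA10 (-0.39). COX7B2 and NDUFAF8 kept this call whichever library was left out, and the other 6 lost it for at least 2 of the 6 libraries. Groups of 3 libraries are too small to look for single outlying values.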

How the results depend on the processing

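Relative log expression scaling, no filter and an effective length offset left all 6 counts of called members as they were. Members higher in NF-YAl than Empty (1) came to 4 by DESeq2, 5 with library totals only, 0 with at least 10 counts in every library, 4 at an adjusted p under 0.05 and 1 to 3 with a library left out. Those lower (8) came to 1 with library totals only, 1 in a fit of the 2 groups, 0 with |log2FC| above 1 and 1 to 19 with a library left out. In NF-YAs against Empty, those higher (7) came to 12 with library totals only, 14 in a fit of the 2 groups, 13 at an adjusted p under 0.05 and 1 with |log2FC| above 1, and those lower (7) to 2 with library totals only, 0 with |log2FC| above 1 and 1 to 5 with a library left out. Between the NF-YA lines, those higher in NF-YAl (2) came to 1 with at least 10 counts, 1 in a fit of the 2 groups, 1 with |log2FC| above 1 and 1 to 2 with a library left out, and those lower (6) to 3 in a fit of the 2 groups, 12 at an adjusted p under 0.05, 0 with |log2FC| above 1 and 1 to 16 with a library left out. The shares of all genes moved too. In fits of the 2 groups, 6.24% of all genes were lower in NF-YAl than Empty and 3.75% lower in NF-YAl than NF-YAs. In the fit of NF-YAs and Empty, 18.9% were higher in NF-YAs. With a library of either line left out, 5.84% to 12.3% of all genes were higher and 5.77% to 12.2% lower in NF-YAl than Empty. In NF-YAs against Empty, 6.28% to 8.16% were lower. Between the NF-YA lines, 1.74% to 6.99% were higher and 2.97% to 8.81% lower in NF-YAl. For an adjusted p under 0.05 the shares of all genes are not given here. COX7B2 leaves the fit under the minimum of 10 counts, and the causes of the other changes were not tested. Of 31 calls of single members, 10 were kept in every fit that tested the gene at the same threshold, 3 of them of COX7B2, which the 10-count minimum leaves out, and no called log2FC changed sign.

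Same-letter correlations of deviations between lines ranged from -0.07 to 0.25 (mean 0.09). Those of different letters ranged from -0.22 to 0.16 (mean -0.03). Deviations of the 3 libraries of a line depend on each other, so these values cannot decide whether the letters pair the libraries. With the letter as a replicate block, in which NF-YAl D carries no information, 2 members were higher and 22 lower in NF-YAl than Empty, 10 higher and 9 lower in NF-YAs, and 1 higher and 19 lower in NF-YAl than NF-YAs. The 22 and 19 were 22.9% and 19.8% of the members, above the 12.6% and 9.43% of all genes. The other counts of that fit were smaller shares of the members than of all genes. Of all genes, 11.7% were higher in NF-YAl than Empty and 7.01% higher in NF-YAl than NF-YAs. In NF-YAs against Empty, 16.3% of all genes were higher and 14.8% lower. SDHC lost its call between the NF-YA lines in that fit (log2FC 0.34). Not every library correlated best with its own letter.

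The summed level of NF-YAs against Empty was 0.21, 0.12, 0.10, 0.25 and 0.26 on the log2 scale for complexes I to V in deposited TPM and 0.0030, -0.096, -0.080, 0.047 and 0.00074 in TMM-scaled CPM. With 3 libraries a line, the smallest difference called was that of NDUFA10 between the NF-YA lines (-0.39). It is no limit of detection, since larger ones did not pass, such as SDHA in NF-YAl against Empty (-0.55). Both smaller and larger differences may have gone undetected.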
